A study of Tachysurus vachellii and Tachysurus fulvidraco x Tachysurus vachelli and Tachysurus fulvidraco with 9 samples.

Results

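miR-21, miR-31 and miR-34a are microRNAs known for their response to stress and tissue injury, and their levels were followed in the livers of a hybrid catfish and both its parental species. They were taken by name from the deposited table and are 4 of its 888 entries: fru-miR-21 (the 5' arm of miR-21), ssa-miR-21b-3p_L-1R+1 (the 3' arm), dre-miR-31_L+1 and dre-miR-34a. Small RNA of whole juvenile liver was sequenced in 9 libraries. Of these, 3 came from the hybrid yellow catfish Huangyou-1 (a cross of P. fulvidraco females with P. vachelli males), 3 from P. vachelli and 3 from P. fulvidraco. All fish were bred by artificial fertilization after hormone injection, incubated at 28°C, and each line was reared in 3 aquaria of 200 fish. The labels name no transgene and no treatment that differs between the lines, give no age in days, and do not say whether a library is a single fish or a pool. The study's title concerns heterosis, and the question put to each miRNA is where the hybrid lies relative to each parent.

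A microRNA is cut from a hairpin precursor, loaded as a single strand into an Argonaute protein, and lowers the output of messenger RNAs that pair with its seed, bases 2 to 8 from the 5' end. In mammals miR-21 is induced by inflammatory and growth signals, acts on growth suppressors such as PDCD4, and increases in injured and regenerating liver. miR-34a is a direct transcriptional target of the tumour suppressor p53 in mammals and acts on SIRT1 and cell-cycle genes. Its relatives miR-34b and miR-34c come from a separate shared transcript, and the whole miR-34 family is counted as p53-linked below. miR-31 is known in mammals mainly from epithelia, where it responds to wounding and inflammation.

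The mature sequences below carry the results, as the deposited table gives them (DNA letters, 5' to 3', seed in capitals). The first 4 are the members, and the last 3 are relatives whose values are set beside them.
fru-miR-21: tAGCTTATcagactggtgttggc
ssa-miR-21b-3p_L-1R+1: gACAACAGtctgtaggctgtct
dre-miR-31_L+1: tGGCAAGAtgttggcatagctg
dre-miR-34a: tGGCAGTGtcttagctggttgt
mdo-miR-21-5p_R+1: tAGCTTATcagactgatgttgac
mmu-miR-34c-5p_R-2_1ss1AT: tGGCAGTGtagttagctgatt
dre-miR-34c-3p_1ss22GC: aATCACTAacctcactaccagc

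The 4 members have 4 different seeds. miR-31 and miR-34a are identical over the first 5 bases and part within the seed. The seed of fru-miR-21 stood on 4 distinct sequences of the table, that of miR-31 on 2, that of miR-34a on 2 and that of the miR-21 3' arm on 1. mdo-miR-21-5p_R+1 differs from fru-miR-21 by G16A and G22A, counted from 1 at the 5' end with the base of fru-miR-21 first. The miR-34b/c sequence, which the table lists under 4 entries named miR-34b or miR-34c in different species, shares the first 9 bases of miR-34a and differs from it at 9 of the 21 bases compared.

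Values are normalized counts, the unit of the deposited table, and errors are SD over 3 libraries. Low values fell on multiples of a step of 0.8985 to 1.1869 per library, taken as the value of 1 read, and 3 reads correspond to 2.70 to 3.56. An estimated 5737332 to 6469718 reads stood behind each hybrid library, 7073802 to 8574306 behind each P. vachelli library and 6333895 to 7425486 behind each P. fulvidraco library. In all, 278 distinct sequences reached 10 in at least 3 libraries and were tested together with limma on log2 of the value plus 1, with Benjamini-Hochberg adjustment over all 278 and a threshold of 0.05. All 4 members were tested, each from a single entry of the table. dre-miR-31_L+1 reached the minimum in all P. vachelli libraries and in 2 hybrid libraries, so it was tested through the species where it is high, and the count of members called is no support for a difference. The comparisons share libraries and are not independent of each other. Library scaling matters here. Setting all libraries to equal totals moved the median log2 fold change of all sequences from -0.01 to 0.34 for the hybrid against P. vachelli, from -0.05 to -0.35 for P. vachelli against P. fulvidraco and from 0.06 to 0.24 for the hybrid against the mid-parent.

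The members spanned a wide range of levels. Over the 9 libraries fru-miR-21 ranked 7 of 278 by mean value, ssa-miR-21b-3p_L-1R+1 ranked 135 with dre-miR-34a just above it, and dre-miR-31_L+1 ranked 213, where the median sequence averaged 334. The mean over all 9 libraries was 222888 for fru-miR-21, 394 for dre-miR-34a, 380.2 for the miR-21 3' arm and 33.2 for dre-miR-31_L+1. Among the tested sequences of liver, then, the miR-21 5' arm was one of the most abundant. miR-34a and the miR-21 3' arm lay near the middle of the tested sequences, and miR-31 lay below it. Their ranks were the same among all 728 distinct sequences, where the middle lies lower.

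**Figure D1:**
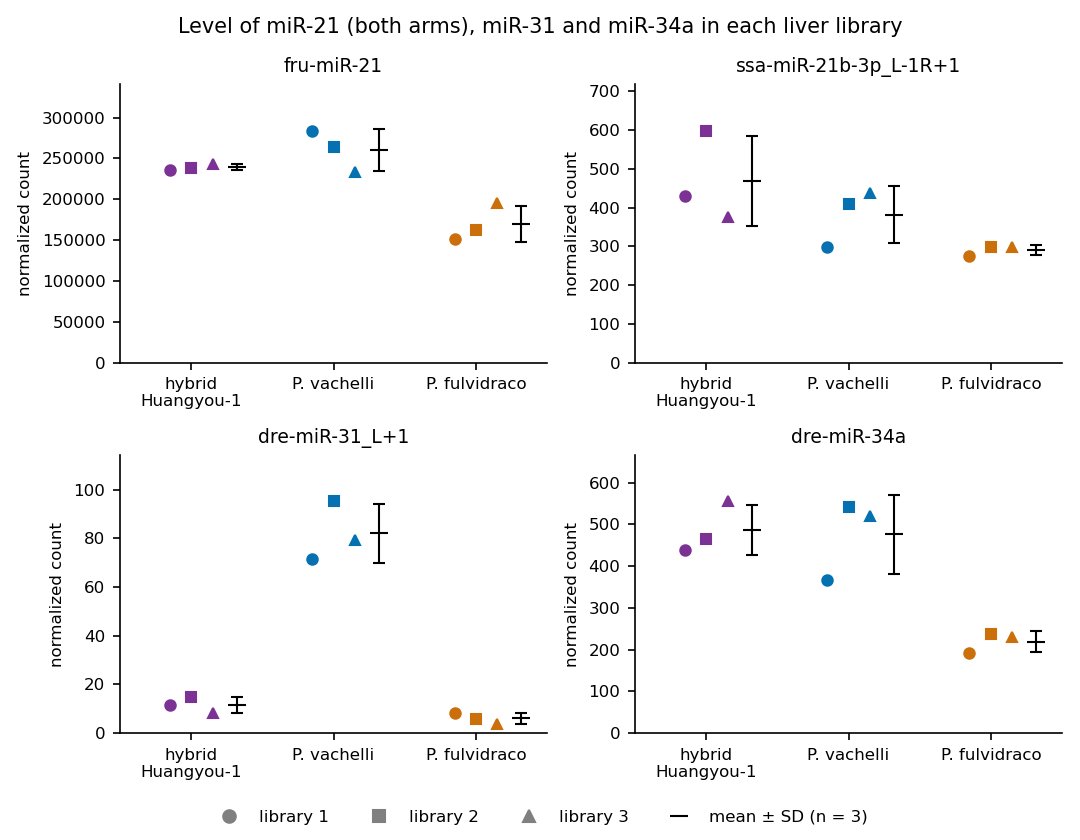
Normalized count of each member (vertical axis, from 0) in the 3 libraries of the hybrid, P. vachelli and P. fulvidraco; symbols mark libraries, and black marks show mean ± SD (n = 3). dre-miR-31_L+1 stands out in P. vachelli (71.5 to 95.2), while fru-miR-21 and dre-miR-34a are lower in P. fulvidraco than in the other 2 groups.

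The abundant 5' arm of miR-21 was higher in the hybrid and in P. vachelli than in P. fulvidraco. fru-miR-21 stood at 235414, 238632 and 243047 in the hybrid libraries, at 283680, 263541 and 232737 in the P. vachelli libraries, and at 151704, 162205 and 195028 in the P. fulvidraco libraries. The hybrid libraries were close together (SD 3832 around a mean of 239031), whereas the parents spread more widely (259986 ± 25657 in P. vachelli livers and 169646 ± 22599.99 in P. fulvidraco livers). All hybrid and all P. vachelli libraries lay above all P. fulvidraco libraries, and the hybrid and P. vachelli overlapped. Against P. fulvidraco the hybrid was higher by 0.50 on the log2 scale (SE 0.10, limma adjusted p = 0.00899), and P. vachelli by 0.62 (SE 0.10, adjusted p = 0.000842). With equal totals P. vachelli exceeded P. fulvidraco by 0.32 (adjusted p = 0.0221), a smaller difference that still passed the threshold. The hybrid against P. vachelli gave -0.12 (95% interval -0.35 to 0.12, adjusted p = 0.412), and with equal totals this difference changed sign, to 0.23 (adjusted p = 0.0904). As a share of the library total, with the entries of a sequence summed, fru-miR-21 made up 3.66% to 3.78% in the hybrid, 2.77% to 3.42% in P. vachelli livers and 2.27% to 2.84% in P. fulvidraco livers. On that scale the hybrid libraries lay above all libraries of both parents, and the share of all sequences that do so was not counted. With equal totals the median sequence was itself 0.34 higher in the hybrid than in P. vachelli. Relative to that median, fru-miR-21 gave -0.114, so its higher share than in P. vachelli is not an excess over the median sequence. For the hybrid against P. fulvidraco, fru-miR-21 gave 0.438 relative to the median of that comparison with equal totals.

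The 3' arm of miR-21, usually the strand that is discarded, was higher in the hybrid than in P. fulvidraco, with more scatter than the 5' arm. ssa-miR-21b-3p_L-1R+1 stood at 429.47, 598 and 377 in the hybrid libraries, at 298, 410.4 and 438 in the P. vachelli libraries, and at 274, 298 and 298 in the P. fulvidraco libraries. The hybrid lay above P. fulvidraco in every library, with hybrid library 2 the highest of all, and P. vachelli library 1 fell within the range of P. fulvidraco. The hybrid exceeded P. fulvidraco by 0.66 (SE 0.20, adjusted p = 0.049), a value just inside the threshold that did not pass without hybrid library 1 (adjusted p = 0.069) or 2 (0.186), P. vachelli library 2 (0.0714), or P. fulvidraco library 1 (0.111), 2 (0.107) or 3 (0.113). P. vachelli against P. fulvidraco gave 0.38 (95% interval -0.08 to 0.84, adjusted p = 0.149), and the hybrid against P. vachelli gave 0.28 (95% interval -0.17 to 0.74, adjusted p = 0.31). Both values depended on the scaling. With equal totals P. vachelli against P. fulvidraco gave 0.07 (adjusted p = 0.782), and the hybrid against P. vachelli gave 0.63 and passed the threshold (adjusted p = 0.0427).

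The 5' arm exceeded the 3' arm by a factor of 399 to 645 in the hybrid libraries, 532 to 953 in P. vachelli livers and 544 to 654 in P. fulvidraco livers. The log2 difference between the arms, which does not depend on library scaling, averaged 9.02 ± 0.35 in the hybrid, 9.42 ± 0.43 in P. vachelli livers and 9.18 ± 0.15 in P. fulvidraco livers (SD, n = 3 each). Groups overlapped in every pair, and exact two-sided permutation tests gave p = 0.5 for the hybrid against P. vachelli, p = 0.5 for the hybrid against P. fulvidraco and p = 0.7 for P. vachelli against P. fulvidraco, where 0.1 is the smallest p that 3 against 3 libraries allow. No arm difference of any size could have passed 0.05 in this test, so it says nothing about whether arm use changed. The table does not say whether both arms come from one precursor locus.

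The second 5' sequence of miR-21, mdo-miR-21-5p_R+1, was far scarcer, and its pattern was not tested against that of fru-miR-21. It stood at 378, 284 and 145.7 in the hybrid, at 139, 139 and 169.65 in P. vachelli, and at 147, 181 and 167 in P. fulvidraco. Hybrid libraries 1 and 2 were the highest of all, while library 3 lay within the parental range. None of the 4 comparisons was called for it, and 2 had an unadjusted p under 0.05 (limma adjusted p of 0.0802 for the hybrid against P. vachelli, 0.211 against P. fulvidraco, 0.698 for P. vachelli against P. fulvidraco and 0.0986 against the mid-parent). It amounted to 0.06% to 0.161% of fru-miR-21 in the hybrid, 0.0489% to 0.0729% in P. vachelli livers and 0.0857% to 0.112% in P. fulvidraco livers. The remaining sequence of this family, mmu-miR-21c_R-2_1ss18AG, a shorter form of 19 bases, reached at most 6.53 in any library.

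**Figure D2:**
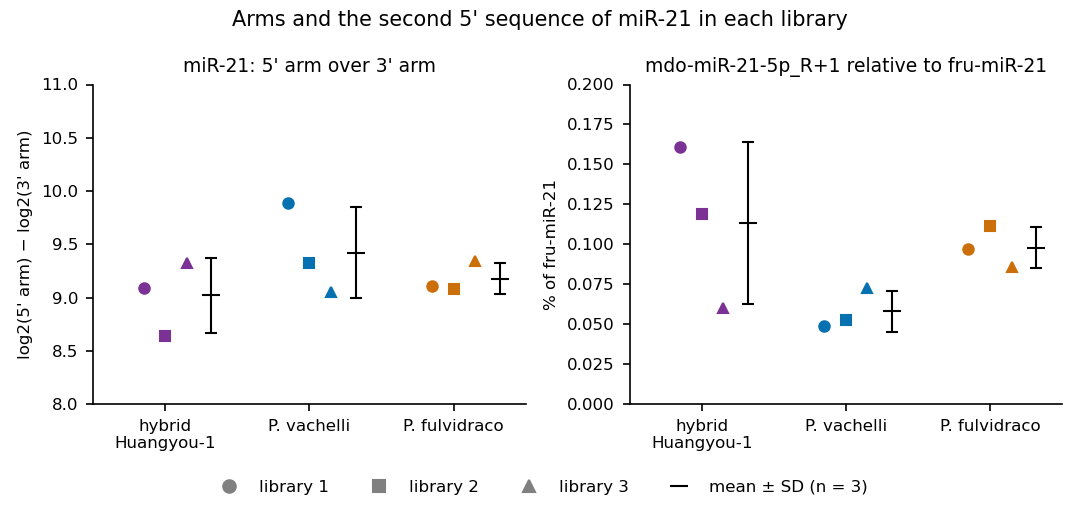
Left, log2 of the 5' arm minus log2 of the 3' arm of miR-21 per library (vertical axis starting at 8); right, mdo-miR-21-5p_R+1 as a percentage of fru-miR-21; symbols mark libraries, and black marks show mean ± SD (n = 3). The groups overlap in arm difference, and hybrid libraries 1 and 2 have the highest share of the second sequence, at 0.161% and 0.119%.

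miR-31 showed the widest gap between the lines. dre-miR-31_L+1 stood at 11.6, 14.8 and 8.09 in the hybrid libraries, at 71.5, 95.2 and 79.5 in the P. vachelli libraries, and at 8.37, 5.93 and 3.69 in the P. fulvidraco libraries. Every P. vachelli library lay far above all others, and hybrid library 3 fell within the range of P. fulvidraco. These values correspond to an estimated 12, 15 and 7 reads in the hybrid, 66, 106 and 67 in P. vachelli, and 9, 6 and 4 in P. fulvidraco. The exact 95% Poisson interval was 2.81 to 14.4 reads for the lowest hybrid library, 51.0 to 84.0 for the lowest P. vachelli library and 1.09 to 10.2 for the lowest P. fulvidraco library. These intervals cover counting error only, since reads that carry no molecular identifier can be PCR copies of one molecule. P. vachelli averaged 82.1 ± 12.1 and P. fulvidraco 6 ± 2.34, a ratio of means of 13.7 (log2 fold change 3.62, SE 0.32, adjusted p = 1.72e-05). The hybrid, at 11.5 ± 3.35, was lower than P. vachelli by 2.76 on the log2 scale (log2 fold change -2.76, SE 0.32, adjusted p = 0.000263). miR-31 entered both tests through the P. vachelli libraries, where it is high. In the fit without a minimum, the limma adjusted p was 3.31e-05 for P. vachelli against P. fulvidraco and 0.000719 for the hybrid against P. vachelli. Against P. fulvidraco the hybrid gave 0.86 (95% interval 0.13 to 1.58, unadjusted p = 0.0255), which did not pass after adjustment over all sequences (adjusted p = 0.092).

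By size of change, miR-31 ranked 6 of 278 sequences for the hybrid against P. vachelli and 13 of 278 for P. vachelli against P. fulvidraco. It ranked 37 for the hybrid against P. fulvidraco and 27 for the hybrid against the mid-parent. Since miR-31 passed the minimum only through the P. vachelli libraries, where it is high, its ranks describe size and are no support for a difference. A longer form with 1 more base at the 3' end, aca-miR-31-5p_R+2_1ss1AT, was listed at 0 in all 3 hybrid libraries, at 6.99, 2.69 and 1.19 in P. vachelli, and at 0, 1.98 and 0 in P. fulvidraco, and only the value of P. vachelli library 1 lay above that of 3 reads. No 3' arm of miR-31 was found by name among the sequences of this family.

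miR-34a was higher in the hybrid and in P. vachelli than in P. fulvidraco. dre-miR-34a stood at 439, 465 and 555 in the hybrid libraries, at 367, 541 and 521 in the P. vachelli libraries, and at 191, 237 and 229 in the P. fulvidraco libraries. The hybrid and P. vachelli overlapped, and both lay above every P. fulvidraco library. The hybrid averaged 486 ± 60.8, P. vachelli 476 ± 95.3 and P. fulvidraco 219 ± 24.4. Against P. fulvidraco, the log2 fold change was 1.145 for the hybrid (SE 0.18, adjusted p = 0.00277) and 1.10 for P. vachelli (SE 0.18, adjusted p = 0.000842). The hybrid against P. vachelli gave 0.05 (95% interval -0.37 to 0.46, adjusted p = 0.864). With equal totals the difference from P. fulvidraco was 1.19 for the hybrid (adjusted p = 0.00261) and 0.80 for P. vachelli (adjusted p = 0.00692), and the hybrid against P. vachelli gave 0.39 (adjusted p = 0.13).

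**Figure D3:**
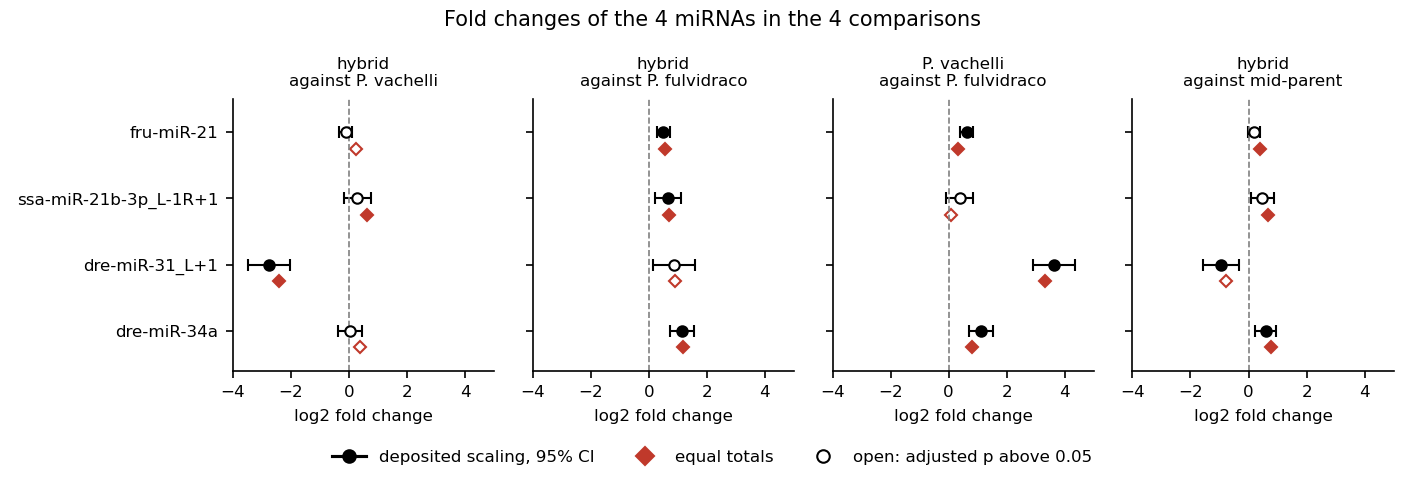
Log2 fold change (horizontal axis) of each member in the 4 comparisons; black circles with bars give the estimate and 95% interval in the deposited scaling, red diamonds the estimate with equal library totals, and open symbols an adjusted p above 0.05. For fru-miR-21 in the hybrid against P. vachelli, the estimate is -0.12 in one scaling and 0.23 in the other.

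The other branch of the miR-34 family ran against miR-34a between the parents. The miR-34b/c 5' sequence, summed over its 4 entries, stood at 37.1, 30.9 and 32.8 in the hybrid, at 6.80, 5.68 and 10.7 in P. vachelli, and at 58.0, 33.6 and 28.0 in P. fulvidraco. All hybrid and all P. fulvidraco libraries lay above all P. vachelli libraries, and the hybrid libraries fell within the range of P. fulvidraco, whose library 1 was the highest. A single entry of this sequence did not reach the minimum for testing. With entries summed it was tested, and it was lower in P. vachelli than in P. fulvidraco by 2.20 on the log2 scale (log2 fold change -2.20, SE 0.33, limma adjusted p = 0.000401) and higher in the hybrid than in P. vachelli (log2 fold change 2.02, SE 0.33, adjusted p = 0.00105). The hybrid against P. fulvidraco gave -0.18 (95% interval -0.92 to 0.56, adjusted p = 0.775). Without the minimum and with a single entry, the adjusted p was 0.00911 for P. vachelli against P. fulvidraco and 0.0233 for the hybrid against P. vachelli.

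The 3' arm sequence dre-miR-34c-3p_1ss22GC had the same order, at 14.5, 8.87 and 6.94 in the hybrid, 3.22, 0.9 and 1.19 in P. vachelli, and 22.3, 5.93 and 9.24 in P. fulvidraco. It did not reach the minimum. All hybrid and all P. fulvidraco libraries lay above all P. vachelli libraries, where the sequence was at the level of 3 reads or under it, so no fold is given. In the fit without a minimum, the limma adjusted p was 0.0331 for the hybrid against P. vachelli and 0.0156 for P. vachelli against P. fulvidraco. mdo-miR-34b-3p was between 0 and 1.93 in every library, under the value of 3 reads, and mmu-miR-34c-3p was listed at 0 in 8 of 9 libraries, so no fold is given for either.

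The ratio of miR-34a to the summed miR-34b/c sequence, set side by side after the values were seen and therefore given with no test, was 11.8, 15.1 and 16.9 in the hybrid libraries. It was 53.9, 95.2 and 48.8 in P. vachelli livers and 3.3, 7.06 and 8.18 in P. fulvidraco livers. The 3 lines did not overlap, with the hybrid between its parents. The hybrid thus held miR-34a at 486, beside 476 in P. vachelli, and miR-34b/c at 33.6, beside 39.9 in P. fulvidraco. A ratio within a library does not depend on library scaling, and it shows unequal change, not which of both sequences changed.

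**Figure D4:**
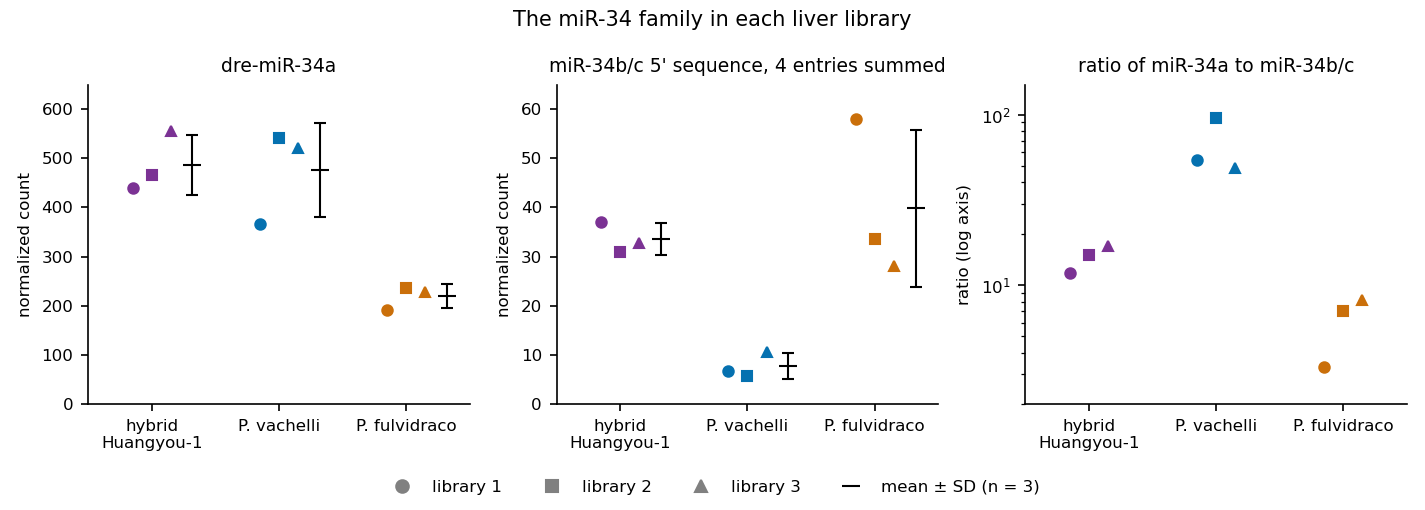
Normalized count of dre-miR-34a (left), of the miR-34b/c 5' sequence summed over its 4 entries (middle) and the ratio of both (right, log axis) in each library of the hybrid, P. vachelli and P. fulvidraco; black marks show mean ± SD (n = 3). miR-34a is lowest in P. fulvidraco and miR-34b/c is lowest in P. vachelli, so that the ratio separates the 3 lines.

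Between the parental means on the log2 scale, with P. fulvidraco at 0 and P. vachelli at 1, the hybrid lay at 0.81 for fru-miR-21 (0.78 to 0.85 over its libraries), at 1.04 for dre-miR-34a (0.91 to 1.22), at 0.24 for dre-miR-31_L+1 (0.12 to 0.34) and at 1.76 for the miR-21 3' arm (1.002 to 2.77), where the parental difference that sets the scale was not called. Against the mid-parent, midway between the parental group means of log2 values, 3 of 3 hybrid libraries lay above for fru-miR-21, the miR-21 3' arm and dre-miR-34a, and 3 of 3 lay below for dre-miR-31_L+1. The share of all sequences with every hybrid library on one side was not counted, so nothing is read from these sides. dre-miR-34a exceeded a mid-parent of 320.1 by 0.60 (SE 0.16, limma adjusted p = 0.0353). dre-miR-31_L+1 was below a mid-parent of 22.6 by 0.95 on the log2 scale (log2 fold change -0.95, SE 0.28, adjusted p = 0.0428). Both calls are close to the threshold and were lost when single libraries were left out. The call of dre-miR-34a was lost without hybrid library 2 (adjusted p = 0.0833) or 3 (0.0932) or P. fulvidraco library 1 (0.0527), 2 (0.0543) or 3 (0.0568). That of dre-miR-31_L+1 was lost without hybrid library 1 (adjusted p = 0.0768), 2 (0.057) or 3 (0.112), P. vachelli library 1 (0.0574), 2 (0.104) or 3 (0.0644), or P. fulvidraco library 1 (0.0635) or 2 (0.0805). fru-miR-21 gave 0.19 (adjusted p = 0.151) and the miR-21 3' arm 0.47 (adjusted p = 0.088), neither past the threshold. With equal totals both passed it, fru-miR-21 at 0.39 (adjusted p = 0.0133) and the 3' arm at 0.67 (adjusted p = 0.0331).

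Counts of called members are read against all sequences tested. Of the 4 members, 1 was called for the hybrid against P. vachelli (34.9% of all sequences), 3 for the hybrid against P. fulvidraco (19.4%), 3 for P. vachelli against P. fulvidraco (51.4%) and 2 for the hybrid against the mid-parent (18.7%). With 4 members chosen with earlier results known, nothing further is read from these counts. Over all sequences the calls were 43 higher and 54 lower for the hybrid against P. vachelli, and 88 higher and 26 lower with equal totals. For P. vachelli against P. fulvidraco they were 86 higher and 57 lower, and 52 higher and 87 lower with equal totals. For the hybrid against the mid-parent they were 28 higher and 24 lower, and 58 higher and 8 lower with equal totals. The libraries of both groups did not overlap for 46.8% of sequences in the hybrid against P. vachelli, 36.3% in the hybrid against P. fulvidraco and 59.4% in P. vachelli against P. fulvidraco.

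**Figure D5:**
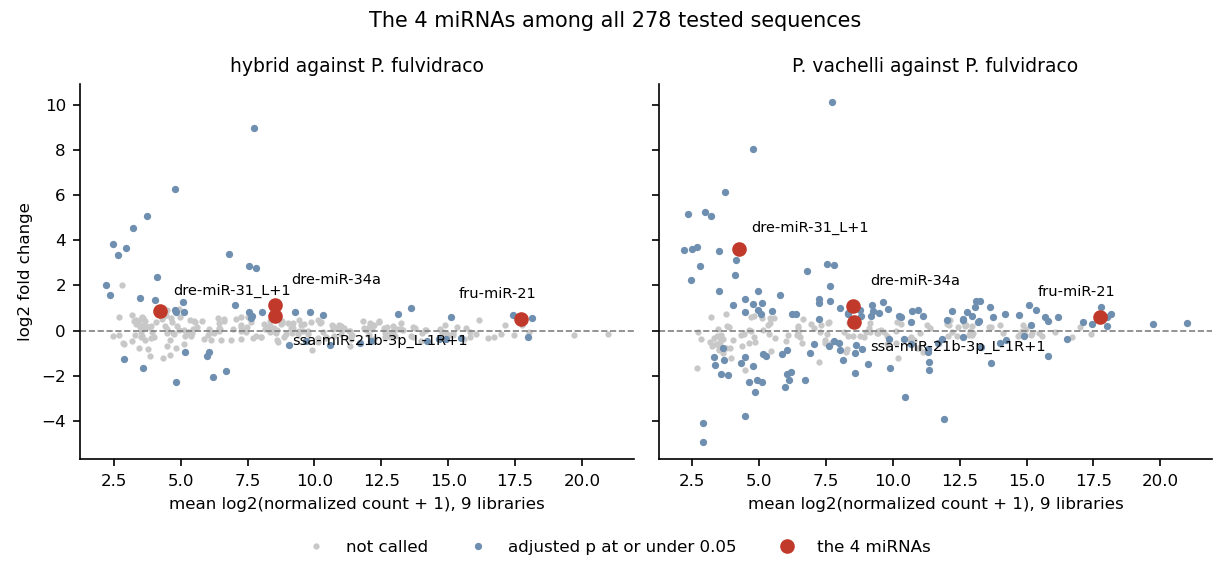
Log2 fold change (vertical axis) against mean log2(normalized count + 1) over 9 libraries (horizontal axis) for all 278 tested sequences, for the hybrid against P. fulvidraco (left) and P. vachelli against P. fulvidraco (right); blue points are called, grey points are not, and the members are red. All 4 members lie above 0 in both panels, which share the P. fulvidraco libraries, and dre-miR-31_L+1 reaches 3.62 on the right. dre-miR-31_L+1 on the left and ssa-miR-21b-3p_L-1R+1 on the right are not called. The median over all sequences is 0.06 on the left and -0.05 on the right, and the share above 0 was not counted.

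Among the members, the 9 libraries gave Pearson's r of 0.84 between fru-miR-21 and dre-miR-34a, 0.76 between the miR-21 3' arm and dre-miR-34a, 0.67 between fru-miR-21 and dre-miR-31_L+1, 0.59 between dre-miR-31_L+1 and dre-miR-34a, 0.52 between both arms of miR-21 and 0.29 between the miR-21 3' arm and dre-miR-31_L+1. These describe log2 values that share libraries and differences between 3 lines, and carry no test. Outside their own families, the sequences most like fru-miR-21 were cgr-miR-100-5p_R+1 (r = 0.949) and ssa-miR-145-3p_L+2R-1 (0.939), followed by the predicted candidate PC-5p-17897_142 (0.926). Those most like the miR-21 3' arm were dre-miR-458-3p (0.833), ssa-miR-143-5p (0.795) and dre-miR-212_R+2 (0.789). dre-miR-31_L+1 was followed most closely by ssa-miR-92b-3p (0.978), ssa-miR-126-3p_1ss18AG (0.972) and tni-miR-27e_R-1_1ss19AT (0.972). dre-miR-34a was followed most closely by ccr-miR-218a_R+1 (0.972), then by the predicted candidates PC-5p-555_7718 (0.94) and PC-5p-17897_142 (0.932).

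Other miRNAs of the same fields were counted beside the members, in lists chosen with earlier results of these data known. The list counts and medians are in the deposited scaling and were not repeated with equal totals. Arms and variants of a family are counted as separate sequences. In the p53-linked list (families miR-34, miR-192, miR-194, miR-215, miR-107, miR-145, miR-143, miR-15, miR-16 and miR-605), 18 sequences other than miR-34a were tested. Of these, 8 were higher and 1 lower in P. vachelli than in P. fulvidraco, 44.4% and 5.6% beside 30.9% and 20.5% of all sequences, with a median log2 fold change of 0.57 beside -0.05 over all. The miR-34b and miR-34c sequences did not reach the minimum and are missing from all counts of this list. With entries summed, miR-34b/c was lower in P. vachelli than in P. fulvidraco (log2 fold change -2.20, limma adjusted p = 0.000401). It was then higher in the hybrid than in P. vachelli (2.02, adjusted p = 0.00105) and than the mid-parent (0.92, adjusted p = 0.0496, just inside the threshold). Without the minimum and with a single entry, its mid-parent comparison gave 0.77 and was not called (limma adjusted p = 0.313). ccr-miR-192_R+1, an abundant liver and gut miRNA, stood at 60914 ± 3788 in P. vachelli livers and 32689 ± 3455 in P. fulvidraco livers (log2 fold change 0.90, limma adjusted p = 5.81e-05). For the hybrid against P. vachelli 1 was higher and 3 were lower (5.6% and 16.7%, beside 15.5% and 19.4% of all sequences), among them ccr-miR-192_R+1 at 35878 ± 2021 in the hybrid (log2 fold change -0.76, adjusted p = 0.000356). For the hybrid against P. fulvidraco 3 were higher and 1 was lower (16.7% and 5.6%, beside 12.9% and 6.47%), with ssa-miR-143-5p at 1543 ± 243 in the hybrid and 945 ± 68.4 in P. fulvidraco (log2 fold change 0.70, adjusted p = 0.00899). Against the mid-parent 0 were higher and 2 lower (0% and 11.1%, beside 10.1% and 8.63%), where miR-34a was higher. These were ccr-miR-192_R+1 (log2 fold change -0.31, adjusted p = 0.0362) and fru-miR-16 (log2 fold change -0.26, adjusted p = 0.0494). In the hybrid, miR-192 was therefore closer in value to P. fulvidraco and miR-34a to P. vachelli.

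In the list of injury, fibrosis and inflammation families (miR-21, miR-31, miR-29, miR-199, miR-214, miR-155, miR-146, miR-223, miR-221, miR-222, miR-210 and miR-26), 33 sequences other than the members were tested. In P. vachelli against P. fulvidraco 12 were higher and 6 lower (36.4% and 18.2%, beside 30.9% and 20.5% of all sequences). In the hybrid against P. vachelli 3 were higher and 7 lower (9.1% and 21.2%, beside 15.5% and 19.4%), and in the hybrid against P. fulvidraco 5 were higher and 2 lower (15.2% and 6.1%, beside 12.9% and 6.47%). Against the mid-parent 4 were higher and 6 lower (12.1% and 18.2%, beside 10.1% and 8.63%). ccr-miR-146a, which in mammals is induced by NF-kB and dampens inflammatory signalling, was highest in the hybrid, at 246455 ± 28697 in the hybrid, 138941 ± 14474 in P. vachelli livers and 154094 ± 8393 in P. fulvidraco livers. It had the smallest p of the list for the hybrid against P. fulvidraco (log2 fold change 0.67, adjusted p = 0.00277) and exceeded the mid-parent by 0.75 on the log2 scale (adjusted p = 0.000772), again the smallest p of the list. hsa-miR-29b-2-5p_R+1_1ss18CT was lower in the hybrid than in P. fulvidraco, at 28.4 ± 3.68 in the hybrid, 26.8 ± 2.99 in P. vachelli livers and 55.4 ± 7.2 in P. fulvidraco livers (log2 fold change -0.94, adjusted p = 0.00961). ssa-miR-199a-5p_1ss11AG, of a family made by mesenchymal cells such as hepatic stellate cells, was lowest in P. fulvidraco, as was miR-34a, at 470 ± 56.9 in the hybrid, 478 ± 54.8 in P. vachelli livers and 231 ± 34.2 in P. fulvidraco livers (hybrid against P. fulvidraco, log2 fold change 1.03, adjusted p = 0.00286). bta-miR-221, which in mammals represses the cell-cycle inhibitor p27, was highest in P. vachelli, as was miR-31, at 5582 ± 222.7 in the hybrid, 10478 ± 216.8 in P. vachelli livers and 6009 ± 286 in P. fulvidraco livers (hybrid against P. vachelli, log2 fold change -0.91, adjusted p = 0.000154).

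In whole liver, fewer cells of a type and less RNA per cell cannot be told apart. The liver markers (miR-122, miR-192, miR-194 and miR-148, all present) summed to 1870343 to 1987123 in the hybrid, 2449556 to 2961096 in P. vachelli livers and 1969192 to 2219450 in P. fulvidraco livers. Of their 9 tested sequences 4 were called higher and 1 lower in P. vachelli than in P. fulvidraco (44.4% and 11.1%, beside 30.9% and 20.5% of all sequences). Sums of markers of other cells differed between the lines too in the deposited scaling. The endothelial family miR-126 summed to 218022 to 249697 in the hybrid, 337366 to 398038 in P. vachelli livers and 228046 to 259365 in P. fulvidraco livers, highest in P. vachelli as miR-31 was. Of its 5 tested sequences 5 were called higher in P. vachelli than in P. fulvidraco (100%, beside 30.9% of all sequences). The epithelial families, with miR-141 absent by name or without signal, summed to 20354 to 20919.57 in the hybrid, 24070.12 to 26616 in P. vachelli livers and 17529.9 to 19567 in P. fulvidraco livers. Of 6 tested sequences 4 were called higher in P. vachelli than in P. fulvidraco (66.7%, beside 30.9% of all sequences). Leukocyte markers summed to 20000.4 to 21001 in the hybrid, 16615 to 17999 in P. vachelli livers and 19549.8 to 20133 in P. fulvidraco livers, and miR-34b/c was lowest in P. vachelli too. Of 7 tested leukocyte sequences 2 were called lower in P. vachelli than in P. fulvidraco (28.6%, not far from 20.5% of all sequences). Erythroid markers summed to 58720.46 to 97610.2 in the hybrid, 37915 to 42304 in P. vachelli and 78963 to 94637 in P. fulvidraco. Of 8 tested sequences 2 were called higher and 5 lower in P. vachelli than in P. fulvidraco (25% and 62.5%, beside 30.9% and 20.5% of all sequences). Muscle markers, with miR-208 absent by name or without signal, summed to 1570.4 to 3416 in the hybrid, 826 to 884 in P. vachelli and 1812 to 2365 in P. fulvidraco. They did not move as one. Of 6 tested muscle sequences 2 were called higher and 3 lower in P. vachelli than in P. fulvidraco (33.3% and 50%, beside 30.9% and 20.5% of all sequences). Pancreatic markers summed to 9781 to 17385 in the hybrid, 5730.3 to 12104 in P. vachelli and 8465 to 15441 in P. fulvidraco, and neural markers to 941 to 1019 in the hybrid, 928 to 1342 in P. vachelli and 1073 to 1303 in P. fulvidraco. Between the parents 0 of 3 tested pancreatic sequences were called. Of 4 tested neural sequences 1 was called higher and 2 lower in P. vachelli (25% and 50%, beside 30.9% and 20.5% of all sequences). The part of these cells in the results for miR-21, miR-31 and miR-34a was not tested.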

How the data were processed

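Small RNA libraries were prepared with the TruSeq Small RNA kit and sequenced on an Illumina HiSeq instrument, and ACGT101-miR removed adapter dimers, low-complexity reads, other RNA classes and repeats, per the labels' protocols. The values deposited by the authors are a signal for each mature sequence in each library, called normalized counts per the file headers. How they were normalized, which miRNA collection was matched and which genome was used is not given in the sources used here, so positions are not reported. Repeated entries of a sequence held the same values, and 160 repeats were dropped from 888 entries, which left 728 sequences. Low values of single-entry sequences lay within 0.1 of a whole multiple of one step for 86.2% to 93.6% of them per library, but repeated sequences lay on fractions of it, so the values were not treated as counts.

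One limma 3.58.1 model (R 4.3.3, trended variance) was fitted to all 9 libraries on log2(value + 1), with a mean per line and no further term. Arm differences were compared by exact permutation with scipy 1.17.1 in Python 3.11.15, and figures were drawn with matplotlib 3.10.9. Members, lists and tests were chosen with earlier results of these data known. Named sequences were the members, every other entry of their families, the 3 most alike sequences per member, and up to 3 sequences with the smallest p per list; the ratio of miR-34a to miR-34b/c was chosen after its values were seen. P-values measure the spread between these samples, which may be technical. The fit was tested on simulated data.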

Additional observations from a re-analysis of the deposited data

How the results depend on the processing

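Across other scalings, pseudocounts (0.5 and 5), filters (none, and 100), the trend, a replicate block, single pairs of lines, summed or repeated entries and each library left out, the calls of fru-miR-21 and dre-miR-34a against P. fulvidraco, in the hybrid and in P. vachelli, were kept, as were those of dre-miR-31_L+1 for the hybrid against P. vachelli and for P. vachelli against P. fulvidraco, which could not be tested at the filter of 100. Of 327 alternative values with a test for 16 results, 286 kept direction and call, and the 4 arithmetic mid-parent values have no test. All values below are log2 fold changes. The cause of each change was not tested.

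For fru-miR-21 with equal totals, and with equal totals without the most abundant sequence, the hybrid against P. vachelli gave 0.23 and 0.17, turning the sign of an uncalled -0.12, and the mid-parent comparison was called at 0.39 and 0.33. Relative to the median of all tested sequences, the hybrid against P. vachelli gave -0.111 in the deposited scaling and -0.114 with equal totals. The mid-parent comparison gave 0.134 and 0.145 on that scale. With an arithmetic mid-parent fru-miR-21 gave 0.15. For the miR-21 3' arm, equal totals brought a call in the hybrid against P. vachelli (0.63, adjusted p = 0.0427, range over alternatives 0.0427 to 0.754) and against the mid-parent (0.67, adjusted p = 0.0331, range 0.0331 to 0.354). The call of the 3' arm in the hybrid against P. fulvidraco was lost with a pseudocount of 5 (0.65), median-ratio scaling (0.65), equal totals without the most abundant sequence (0.65), and at 0.66 with no filter, the filter of 100, no trend, the pair alone and the replicate block (adjusted p from 0.0307 to 0.186 over all alternatives). For dre-miR-31_L+1 the mid-parent call was lost at -0.95 with a pseudocount of 0.5, no filter and the replicate block, at -0.76 with equal totals and at -0.82 without the most abundant sequence; the arithmetic mid-parent gave -1.85. The mid-parent call of dre-miR-34a was lost without a filter (0.60).

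With each library left out in turn, the hybrid against P. vachelli, the hybrid against P. fulvidraco, P. vachelli against P. fulvidraco and the mid-parent comparison ranged as follows. fru-miR-21 gave -0.19 to -0.05, 0.43 to 0.61, 0.54 to 0.72 and 0.15 to 0.25. The miR-21 3' arm gave 0.09 to 0.43, 0.47 to 0.80, 0.27 to 0.55 and 0.28 to 0.62. dre-miR-31_L+1 gave -2.95 to -2.55, 0.60 to 1.10, 3.36 to 3.86 and -1.14 to -0.74. dre-miR-34a gave -0.13 to 0.15, with the sign turned without hybrid library 3 (-0.05) or P. vachelli library 1 (-0.13), then 1.05 to 1.22, 0.998 to 1.28 and 0.50 to 0.67. The arm difference of miR-21 in the hybrid against P. fulvidraco gave -0.31 to 0.03, with the sign turned (0.033) without hybrid library 2.

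Samples of the same number did not deviate together (r from -0.42 to 0.16, over 0.1 in 2 of 9 pairs, and 1 of 9 libraries correlated best with its own number). The replicate block gave 82 calls over all sequences for the hybrid against P. vachelli, beside 97 without it, and 30 against 52 for the mid-parent. Counts over all sequences also moved by more than 1.5 times in settings that tested other numbers of sequences. For the mid-parent 52 of 278 were called, beside 21 of 728 without a filter and 81 of 349 with all entries. It was 18 of 275 without hybrid library 2 and 29 of 273 without P. vachelli library 2. Without P. fulvidraco library 2 or 3 it was 28 of 275 or 32 of 274. For the hybrid against P. fulvidraco 54 of 278 were called, beside 34 of 179 at the filter of 100 and 31 of 274 without P. fulvidraco library 3. For P. vachelli against P. fulvidraco 86 were called higher and 57 lower of 278, beside 60 and 33 of 179 at the filter of 100. That filter left fewer sequences to test, so its lower counts do not show a lower share called. dre-miR-31_L+1 rested on 4 to 15 reads per library in the hybrid and P. fulvidraco, and the part of depth in that comparison was not tested.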
